A study of Mus musculus with 8 samples.

Results

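The insulin-like growth factor (IGF) genes described here include the ligand genes Igf1 and Igf2 and the receptor genes Igf1r and Igf2r. The others are the binding protein genes Igfbp2, Igfbp3, Igfbp4, Igfbp5, Igfbp6 and Igfbp7. These 10 genes were chosen by name and not by their values, though with earlier results of these data known. They were read from a table of cluster markers of cultured mouse preadipocytes, in which each of 12 cell clusters was compared with all other cells. Of the 10 genes, 8 had at least 1 entry, and these held 42 of the 13337 entries of the table, which covers 3903 gene symbols. Igf2 and Igfbp2 had no entry in any cluster. Genes below the table's minimums in a cluster are left out of it, so a missing entry does not stand for a level of 0.

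IGF-I and IGF-II are small hormones related to insulin, and in fat they act on precursor cells as growth and differentiation signals. The type 1 receptor, encoded by Igf1r, passes the signal on through insulin receptor substrates to PI3K and AKT, while the type 2 receptor, encoded by Igf2r, takes up and clears IGF-II and sorts lysosomal enzymes. The binding proteins are secreted, hold IGFs outside the cell and release them when proteases cut the binding protein, so they can block or prolong the signal.

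The cells came from inguinal white fat of C57BL/6 mice, aged 8 to 12 weeks by the study's methods, that were either wild type (WT) or lacked both Hmgn1 and Hmgn2 (Hmgn1-/- and Hmgn2-/-, called DKO), which encode nucleosome-binding proteins. WT and DKO preadipocytes were profiled by droplet 3′ single-cell RNA-seq at day 0 and at day 6 of browning, with 2 samples in each of the 4 groups and 8 in all. The differentiation medium held rosiglitazone (1 μM), T3 (1 nM), IBMX (0.5 mM), insulin (0.5 μg/ml) and dexamethasone (5 μM) for 4 days, and the maintenance medium, which kept only the insulin and T3 at these doses, was given for the next 4 days, so insulin was present in the medium of the induced cells of both genotypes. The study asked whether loss of the HMGN proteins speeds browning, but the table pools the cells of all 8 samples, so neither the genotypes nor the days were compared here, the knockout could not be checked by sample, and no value has a replicate, an SD or a test over samples. The number of animals behind each culture is not given in the sources used here.

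All detection percents, log2 fold changes and adjusted p-values below are the authors' deposited values, and relative levels were computed from them. Detection is the percent of cells in which a transcript of the gene was found. A fold change sets the mean of a cluster, plus 1, against that of all other cells. A relative level sets it against the mean of all cells instead, so that the clusters of 1 gene share a scale. An entry was called higher or lower where the MAST adjusted p was below 0.05 and the log2 fold change at least 0.25 in size, and the MAST test treats single cells as replicates. The study's methods give only targets for the number of cells and the read depth. The numbers reached are unknown, so counting error could not be given.

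The clusters differed widely in what they held. Cluster 11, led by Car3 and Fabp5, had all 10 genes of an adipocyte marker list called higher and was an estimated 1.5% of the cells. Cluster 4 (9.59%), led by AY036118 and Gm42418, had 7 of them called higher and cluster 8 (5.92%), led by Gsn and Peg3, had 6. Of 8 genes of a proliferation list, all were called higher in clusters 5 and 6. In cluster 9, 5 of them were called higher and 1 lower. Clusters 0, 1, 2, 3, 7 and 10 were led by Thbs1 and Tagln, Cxcl14 and Mmp3, A2m and Serpina3n, Ccl8 and Mmp2, Ogn and Hp, and Gm26917 and S100a4. Col5a3 and Serpina3n, the markers of a differentiating list, were both called higher in clusters 2, 4, 6 and 8. Both were called lower in cluster 10, and 1 was lower in each of clusters 0, 5, 9 and 11. The 5 immune, 3 endothelial and 3 glial markers looked for had no entry. The authors had removed such cells before the final clustering. Of 6 mural and smooth muscle genes 3 had entries. All 3 were called higher in cluster 1, as were 2 of 2 listed in each of clusters 0, 5 and 9. In clusters 4 and 10 the listed genes were detected in few cells, with medians of 10.8% and 8.1% against 63.0% and 62.3% in the other cells, so values from those clusters are named as such.

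Among the IGF genes, 25 of 42 entries were called (59.5%), 8 higher (19%) and 17 lower (40.5%). Of all entries 56.1% were called, 27.7% higher and 28.5% lower. The median log2 fold change was −0.39 over the 42 entries and −0.26 over all entries. Igfbp6 and Igfbp7 held 17 of the 25 called entries, Igfbp4 held 4, Igf1r and Igfbp3 held 2 each, and Igf1, Igf2r and Igfbp5 held none.

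The 3 genes listed in at least 8 clusters, Igfbp4, Igfbp6 and Igfbp7, hold 21 of the 25 called entries, and the 250 bases before their RefSeq transcription start are shown for that reason. All sequences are from RefSeq on GRCm38.p6 and run 5′ to 3′ on the gene's strand. The windows are chr11:99040994-99041243 on the plus strand for Igfbp4, chr15:102143936-102144185 on the plus strand for Igfbp6 and chr5:77408046-77408295 on the minus strand for Igfbp7. Capitals mark matches, on either strand, to any of 10 letter patterns. These were the TATA box (TATAAA), the GC box (GGGCGG), the CCAAT box, the AP-1 element (TGANTCA), the E box (CACGTG), the C/EBP element (TTGCNNAA), the cyclic AMP element (TGACGTCA), the forkhead element (TGTTTAC), the CACCC box and the palindromic steroid receptor element.
Igfbp4: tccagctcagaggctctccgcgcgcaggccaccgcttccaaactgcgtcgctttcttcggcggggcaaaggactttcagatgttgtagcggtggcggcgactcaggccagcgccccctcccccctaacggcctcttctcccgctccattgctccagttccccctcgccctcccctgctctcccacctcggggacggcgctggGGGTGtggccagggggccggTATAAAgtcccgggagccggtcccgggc
Igfbp6: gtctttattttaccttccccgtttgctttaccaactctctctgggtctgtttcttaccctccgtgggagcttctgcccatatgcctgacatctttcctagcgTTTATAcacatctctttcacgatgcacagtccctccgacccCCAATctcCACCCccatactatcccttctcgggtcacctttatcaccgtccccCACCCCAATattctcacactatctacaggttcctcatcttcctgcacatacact
Igfbp7: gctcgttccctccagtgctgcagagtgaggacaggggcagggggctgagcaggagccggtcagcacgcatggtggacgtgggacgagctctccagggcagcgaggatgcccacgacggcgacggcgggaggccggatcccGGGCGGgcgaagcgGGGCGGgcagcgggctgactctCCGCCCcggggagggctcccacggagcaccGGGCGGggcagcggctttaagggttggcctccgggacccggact

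The Igfbp4 window held TATAAA, the letters of a TATA box, 28 bases before the start, and a CACCC match on the opposite strand. The Igfbp6 window held CCAAT 107 and 50 bases before the start, CACCC 99 and 54 bases before it, the latter overlapping the second CCAAT, and TATAAA on the opposite strand 148 bases before it. The Igfbp7 window held GGGCGG, the letters of a GC box, at 110, 96 and 44 bases and on the opposite strand at 74 bases. None of the other 6 patterns matched in these 3 windows. Of 32851 windows of the same length, 12.4% held TATAAA, 32.7% GGGCGG, 33.8% CCAAT, 52.0% CACCC, 6.75% TGANTCA, 6.02% CACGTG, 0.387% the steroid receptor element, 9.56% TTGCNNAA, 1.55% TGACGTCA and 3.17% TGTTTAC. A match is a run of letters and was not tested for function. The genes are protein coding and lie, in GENCODE vM21 on GRCm38, at chr11:99041244-99054392 (Igfbp4), chr15:102144362-102149511 (Igfbp6) and chr5:77349240-77408041 (Igfbp7). The GENCODE start of Igfbp6 lies 176 bases from the RefSeq start, that of Igfbp7 4 bases, and that of Igfbp4 0 bases.

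Igf1, on chromosome 10 at 87858265 to 87937042, encodes IGF-I, which is made in fat as well as in liver. It was detected in 35.7% of all cells, and none of its 4 entries was called. In cluster 7, led by the matrix gene Ogn and the acute phase gene Hp, it was found in 52.8% of cells against 34.5% elsewhere, with a log2 fold change of 1.19 (the authors' MAST adjusted p = 0.75). In cluster 1 detection was 49.6% against 33.4% and the log2 fold change 0.35. These 2 clusters had the highest relative levels, 1.07 and 0.29 on the log2 scale. In clusters 5 and 6, both with the proliferation genes called higher, the log2 fold changes were −0.33 and −0.35, although Igf1 was detected in slightly more of their cells (38.8% and 39.6%) than of the others (35.4% for both). Over the other 8 clusters together detection was 29.9%. The relative levels spanned 1.39 on the log2 scale, a ratio of 2.63.

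Igf1r, on chromosome 7 at 67952827 to 68233668, was detected in 53.6% of all cells and had 2 entries, both called lower. In cluster 11 it was found in 25.0% of cells against 54.0% elsewhere, with a log2 fold change of −0.70 (the authors' MAST adjusted p = 7.11e-08). In cluster 4 it was detected in 5.8% against 58.7%, with a log2 fold change of −0.45. Of all entries of cluster 4, 71.0% were called lower. Cluster 8, with 6 of the 10 adipocyte genes called higher, had no Igf1r entry. Over the 10 clusters without an entry, 59.2% of the cells had it detected and the relative level was 0.05 on the log2 scale.

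Igf2r, on chromosome 17 at 12682406 to 12769664, had 1 entry, in cluster 11, which was not called. Detection there was 37.4% against 42.4%, with a log2 fold change of −0.35 (the authors' MAST adjusted p = 0.0631). Over all cells it was detected in 42.3%, and it had no entry in the other 11 clusters.

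Igfbp6, whose protein prefers IGF-II over IGF-I, had an entry in all 12 clusters, 5 called higher and 5 called lower. It was called higher in cluster 1, where 93.1% of cells had it detected against 52.4% elsewhere (log2 fold change 0.83), and in cluster 0, with 90.3% against 52.8% (0.68). It was also called higher in cluster 3, with 86.6% against 54.9% (0.66), and in cluster 5, with 90.9% against 55.0% (0.39). In 5 clusters it was called lower. Detection was 19.6% in cluster 2 (log2 fold change −1.44), 19.8% in cluster 6 (−1.57) and 19.8% in cluster 8 (−1.48). It was 11.3% in cluster 11 (−1.71) and 3.1% in cluster 4 (−1.65), against 58.9% and 64.0% of the other cells. The proliferation clusters 5 and 6 thus stood on opposite sides, with Igfbp6 detected in 90.9% and 19.8% of their cells. These 2 clusters also differed in other markers. Cluster 6 had both differentiating markers called higher, and of the 10 adipocyte genes 3 higher and 1 lower. Cluster 5 had 1 differentiating marker and 5 adipocyte genes called lower. In cluster 7 it was detected in 53.9% against 58.5% of cells, with a log2 fold change of −0.40 that was not called. In cluster 9, with 5 of the 8 proliferation genes higher and 1 lower, Igfbp6 detection was 88.6% and the log2 fold change 0.27, not called. In cluster 10 the entry was called higher, with a log2 fold change of 0.35, although detection was 24.3% against 59.3%. Relative levels ran from −1.69 in cluster 11 to 0.68 in cluster 1, a ratio of 5.16.

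Igfbp7, which encodes a secreted matrix protein that binds IGFs only weakly, was the most widely detected of the 8 genes, in 89.8% of all cells. It had 10 entries, 2 called higher and 5 lower. It was called higher in cluster 7, where 99.9% of the cells had it detected (log2 fold change 1.22), and in cluster 1, also at 99.9% (0.69). It was called lower in cluster 11, with 85.1% of the cells and a log2 fold change of −2.19, and in cluster 4, with 26.3% against 96.5% and −2.04. In clusters 2, 6 and 8 it was still detected in 94.8%, 97.8% and 94.5% of the cells, while the log2 fold changes were −1.06, −1.12 and −1.20. The means of these 3 clusters were lower although almost all of their cells had the gene detected. The other cells of clusters 2, 6 and 8 had detection of 89.1%, 89.1% and 89.5%, which cluster 4 lowers. Without cluster 4 it was 96.8%, 96.4% and 96.7%, above clusters 2 and 8 and below cluster 6. Relative levels ran from −2.17 in cluster 11 to 1.10 in cluster 7, a ratio of 9.64.

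Igfbp4, which encodes an inhibitor of IGF action that the protease pappalysin cuts, was detected in 68.1% of all cells and had 8 entries, 1 called higher and 3 lower. Cluster 1 was the cluster where it was called higher, with detection in 96.5% against 63.4% and a log2 fold change of 1.73 (the authors' MAST adjusted p = 4.55e-11). It was called lower in cluster 0, with 58.3% against 69.7% and a log2 fold change of −1.49, with the authors' MAST adjusted p of 0.0458, which lies close to the threshold and misses a stricter one of 0.01. It was also called lower in cluster 4, with 35.1% against 71.6% (−0.72), and in cluster 11 (−1.37). Igfbp6 was called higher in both clusters 0 and 1, while Igfbp4 was called lower in the former and higher in the latter. Genes listed in cluster 11 had a median detection of 66.4% there, against 48.7% in other cells. In this cluster Igfbp4 was detected in more cells than elsewhere, 78.6% against 67.9%, or against 71.5% without cluster 4, while its mean was lower. In clusters 2, 5, 7 and 9 the log2 fold changes were 0.77, −0.95, −0.92 and −1.0, none of them called. Relative levels ran from −1.36 in cluster 11 to 1.32 in cluster 1, a ratio of 6.42.

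Igfbp3, at chr11:7206086-7213923, encodes the main IGF carrier of blood plasma. It was detected in 55.7% of all cells, with 4 entries of which 2 were called, both lower. Detection was 33.8% against 56.0% in cluster 11 (log2 fold change −1.62) and 22.2% against 59.3% in cluster 4 (−0.41). In cluster 1 it was 68.0% against 53.7% (0.38) and in cluster 7 it was 40.5% against 56.8% (−0.38), neither called. Igfbp5, at chr1:72857932-72874884, which encodes a binding protein that attaches to extracellular matrix, had 1 entry, in cluster 7, with detection of 16.1% against 6.1% and a log2 fold change of 0.68 (the authors' MAST adjusted p = 1). It was the least widely detected of the 8, in 6.76% of all cells.

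**Figure D1:**
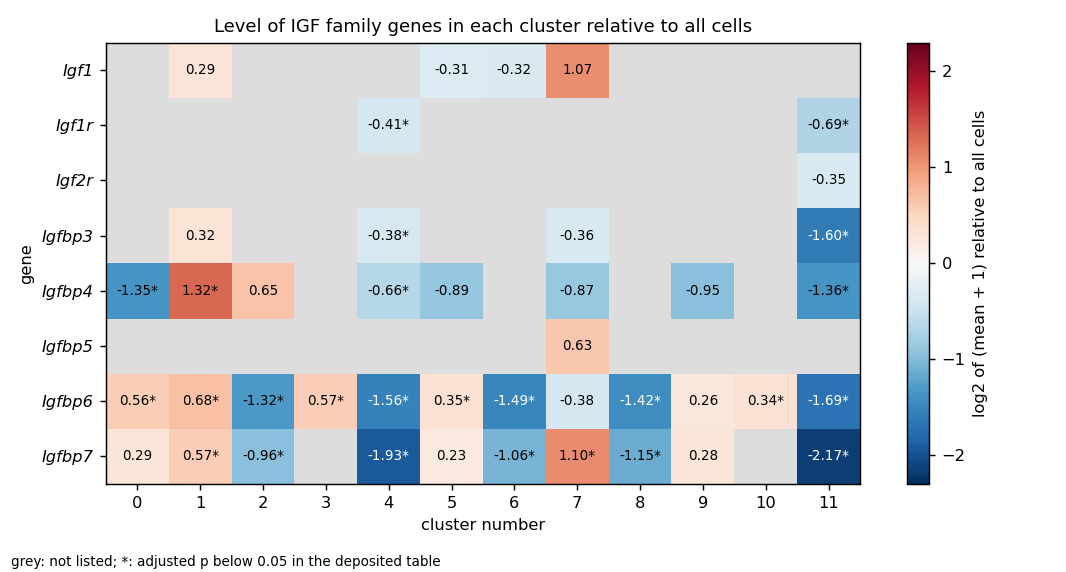
Relative level of each IGF gene by cluster, on a log2 scale, with 0 as the mean over all cells; asterisks mark called entries and grey cells have no entry. Igfbp6 runs from −1.69 in cluster 11 to 0.68 in cluster 1, and Igfbp7 from −2.17 in cluster 11 to 1.10 in cluster 7.

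**Figure D2:**
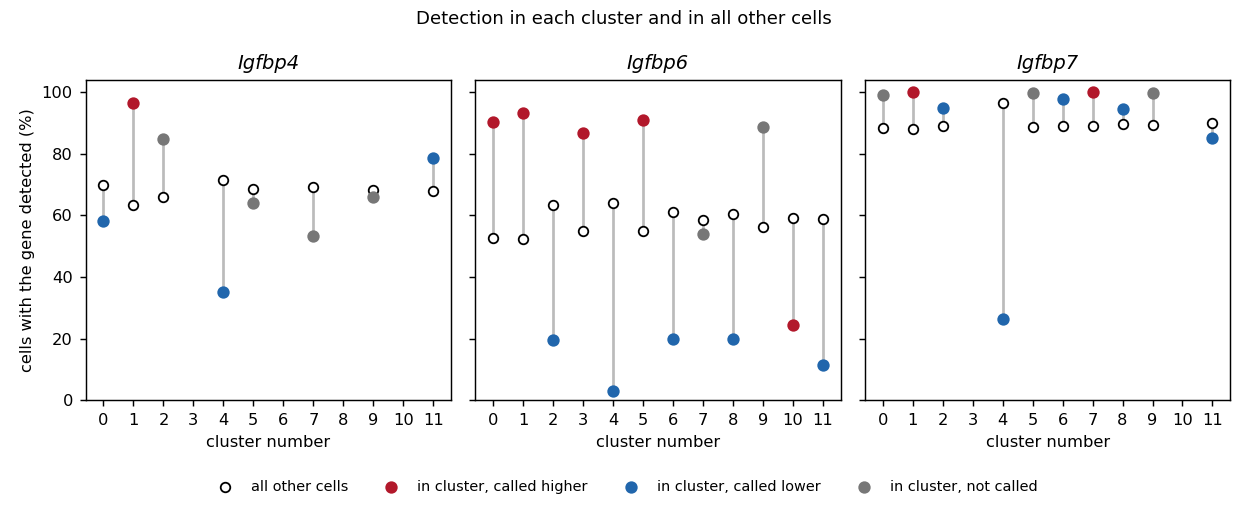
Percent of cells with Igfbp4, Igfbp6 or Igfbp7 detected by cluster number, in the cluster (filled, coloured by the call on the mean) and in all other cells (open). Igfbp6 lies between 86.6% and 93.1% in clusters 0, 1, 3, 5 and 9 at 53.9% in cluster 7, and at or below 24.3% in clusters 2, 4, 6, 8, 10 and 11.

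By cluster, cluster 11 had 6 of the 8 genes listed and 5 called lower, Igf1r, Igfbp3, Igfbp4, Igfbp6 and Igfbp7, and none higher. Of all entries of that cluster 33.8% were called lower and 35.1% higher. In cluster 4 all 5 listed genes were called lower, the same 5 genes, but so were 71.0% of all entries of the cluster. In clusters 2, 6 and 8 the genes called lower were Igfbp6 and Igfbp7 in each, 2 of 3, 2 of 3 and 2 of 2 listed, where 19%, 22.7% and 22.9% of all entries were called lower. In cluster 1 the 3 binding proteins Igfbp4, Igfbp6 and Igfbp7 of 5 listed genes were called higher, against 23.5% of all its entries. In cluster 7 Igfbp7 alone of 6 listed was called higher, against 17.8%. In cluster 0 Igfbp6 was called higher and Igfbp4 lower, of 3 listed, where 30.7% of all entries were called higher and 5.48% lower. The 3 mural and smooth muscle genes with entries, Acta2, Pdgfrb and Tagln, were all called higher in cluster 1 and all lower in clusters 4 and 11. In each of clusters 0, 5 and 9, 2 of 2 listed were called higher. In each of clusters 2, 3, 6 and 8, 2 of them were called lower, although Igfbp6 was called higher in cluster 3. Of a preadipocyte list of 8 genes, 5 had entries, and all 5 were called lower in clusters 4 and 11, 2 of 3 listed in cluster 2, 2 of 3 in cluster 6 and 3 of 4 in cluster 8, while 2 of 3 listed were called higher in each of clusters 0 and 1. In each of clusters 5 and 7, 1 of 2 listed preadipocyte genes was called higher, and in cluster 10 1 of 1. In each of clusters 3 and 9, 0 of 2 were called, although Igfbp6 was called higher in cluster 3. The part of cells with these mural, smooth muscle and preadipocyte genes in the values of the binding proteins was not tested.

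Detection and mean pointed the same way in 35 of the 42 entries. The 7 exceptions were Igf1 in clusters 5 and 6, Igfbp4 in cluster 11, Igfbp6 in cluster 10, and Igfbp7 in clusters 2, 6 and 8.

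Over the 10 clusters with an entry for both, the relative levels of Igfbp6 and Igfbp7 had a Pearson r of 0.86 and a Spearman rho of 0.85, and they had the same sign in 9, cluster 7 being the exception. Cluster 4, of low detection, is among these 10, with relative levels of −1.56 for Igfbp6 and −1.93 for Igfbp7. Clusters 3 and 10 are left out because Igfbp7 had no entry there, while Igfbp6 was called higher in both. Igfbp4 shared 8 clusters with each of Igfbp6 and Igfbp7. Its r was 0.12 with Igfbp6, with the same sign in 4 clusters, and 0.15 with Igfbp7, with the same sign in 3. These are descriptions across clusters, which share the cells they are compared with. Of 428 genes with at least 8 shared clusters, Lgalsl (r = 0.997), Metrnl (0.996) and Uap1l1 (0.995) were most like Igfbp6, over 8 clusters each. Of 288, Sept11 (0.986), Serpinf1 (0.984) and Cnn3 (0.984) were most like Igfbp7, over 9, 9 and 8 clusters. For Igfbp4 31 genes could be compared, and the nearest were Ndufa4l2 (0.80), Emb (0.68) and Serpina3n (0.52) over 8 clusters.

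**Figure D3:**
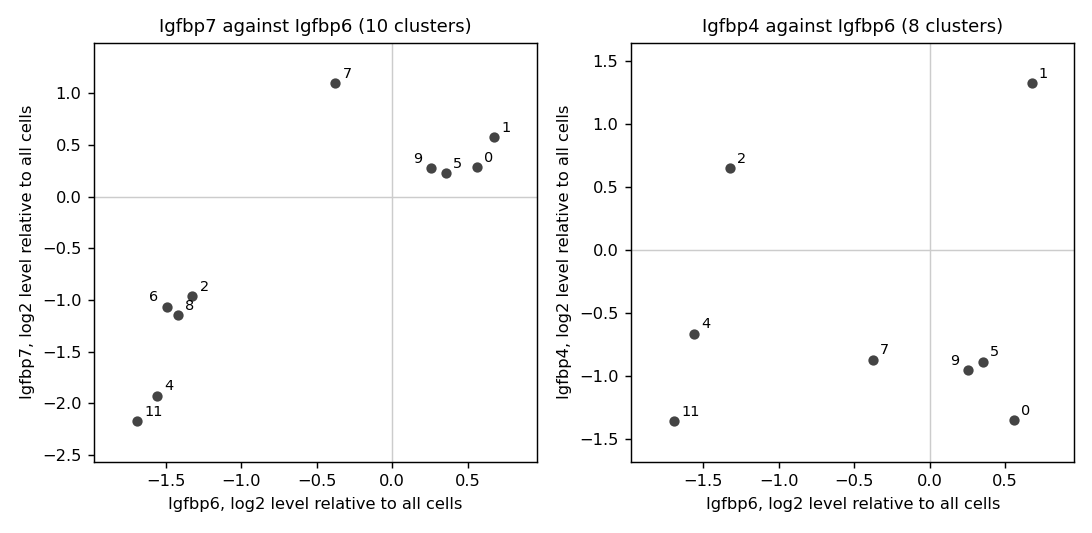
Relative level of Igfbp7 (left) and of Igfbp4 (right) against that of Igfbp6, all on log2 scales, with 1 numbered point per cluster listed for both genes. On the left cluster 7 alone lies in a quadrant of opposite sign (r = 0.86 over 10 clusters), and on the right 4 of 8 clusters do (r = 0.12).

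A list of 95 other genes of IGF signalling, carriage and release was read beside the 8 genes. It also held 6 CCN genes, which encode matrix proteins once named as IGFBP-related. Of the 95 genes 50 had an entry and 43 were called in at least 1 cluster. Among their 215 entries 50 were called higher (23.3%) and 76 lower (35.3%), beside 27.7% and 28.5% of all entries. The CCN genes held 44 of the 215 entries, 12 called higher (27.3%) and 22 lower (50.0%). In cluster 11, 40 genes of the list were present, 9 called higher (22.5%) and 20 lower (50.0%), where 35.1% of all entries of the cluster were called higher and 33.8% lower. The receptors and adaptors among them had 3 higher and 0 lower of 5, and the PI3K and MAPK cascade 6 higher and 3 lower of 12. The IGFBP proteases and their regulators had 0 higher and 8 lower of 11, the other carriers 0 and 3 of 3. The CCN genes had 0 higher and 5 lower of 5. For the Igf2 messenger and imprinted neighbour genes the counts were 0 and 1 of 1, and for the growth hormone axis 0 and 0 of 3.

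The signalling genes called higher in cluster 11, where Igf1r was called lower, were named after their values were seen, except Pik3r1, as were the genes Akt1, Mapk3, Rheb and Pappa. Genes listed in cluster 11 had a median detection of 66.4% there, against 48.7% in other cells. Insr, the insulin receptor, was found in 68.9% of cluster 11 cells and 24.0% of other cells (log2 fold change 0.35). The insulin receptor substrates Irs1 (48.4% against 8.8%, 0.28) and Irs2 (82.7% against 25.6%, 0.67) were higher as well. Pik3r1, a regulatory subunit of PI3K, had a log2 fold change of 1.36, and the downstream genes Foxo1, Akt2, Mtor, Eif4ebp1 and Eif4ebp2 had 0.41, 0.39, 0.26, 0.76 and 0.53. Akt1, Mapk3 and Rheb were called lower, at −0.39, −0.34 and −0.30. The insulin receptor and the type 1 IGF receptor, which share these adaptors, thus went opposite ways in this cluster. They did so too in cluster 4, of low detection, with Insr called higher (0.40, 9.6% against 26.3%) and Igf1r lower (−0.45). Irs2 was also called higher in clusters 6 (0.32) and 8 (0.57) and lower in cluster 10 (−0.28). Pik3r1 was also called higher in clusters 4 (0.36) and 7 (0.43) and lower in cluster 10 (−0.32). Pappa, the protease that cuts IGFBP-4, was detected in 9.0% against 46.0% (−0.99), and the metalloproteases Mmp3, Mmp14 and Mmp2 had −2.58, −1.72 and −1.70. Lrp1, an endocytic receptor, had −1.12.

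**Figure D4:**
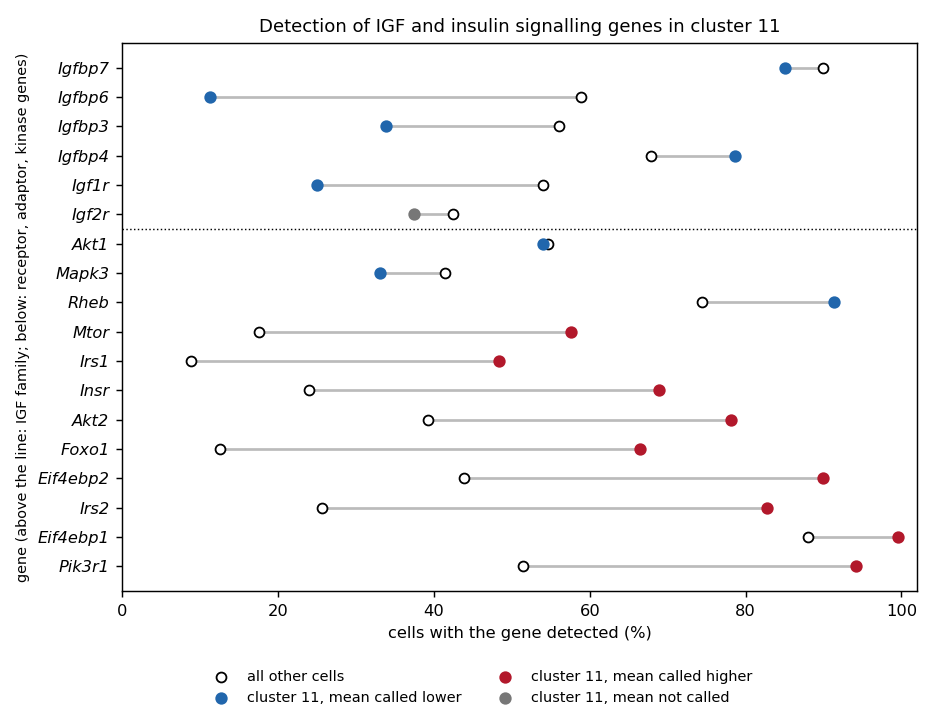
Percent of cells with a gene detected in cluster 11 (filled, coloured by the call on the mean) and in all other cells (open), for the IGF genes above the dotted line and receptor, adaptor and kinase cascade genes below it. Igf1r is at 25.0% against 54.0% and Insr at 68.9% against 24.0%, while Igfbp4 is called lower at 78.6% against 67.9%. The median over all genes listed in cluster 11 is 66.4% against 48.7%.

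In cluster 7 Igf1 had its highest relative level, in an entry that was not called, and Igfbp7 was called higher. Of the list 11 genes were present there, 5 called higher and 0 lower, where 17.8% of all entries of the cluster were called higher. Ghr, the growth hormone receptor, upstream of Igf1 in liver, was detected in 73.6% against 36.1% of cells (log2 fold change 1.44), and Socs2, which dampens that receptor's signal, in 61.6% against 31.0% (0.79). Stc1, of the stanniocalcin family that inhibits pappalysin, was detected in 55.9% against 10.2% (1.65). Pik3r1 and the CCN gene Ccn5 were also called higher (0.43 and 0.60). Socs2 was named after its values were seen. In cluster 4, 23 of 27 genes of the list were called lower, beside the 71.0% of all its entries.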

How the data were processed

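WT and DKO inguinal preadipocytes were profiled at day 0 and day 6, with 2 samples per group. Per the study's methods, the authors processed the 10x reads with Cell Ranger 6.0.0 (mm10), equalized read depth between captures, and filtered and log-normalized the cells. After a first clustering they removed immune, glial and endothelial cells, then scaled and clustered the remaining cells again. Removal of doublets is not described in those methods, and none were looked for here. Each cluster was compared with the remaining cells by MAST. The deposited log2 values are those fold changes, none under 0.25 in size. The deposited p-values are over single cells, with a Bonferroni adjustment, and served only to select entries. The authors also deposited the fraction of cells with each gene detected inside a cluster and in the others, printed as percents.

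Fold changes and p-values here are therefore the authors' own comparisons, used because the table holds no other values. Columns with values per sample left unused numbered 0. Cluster shares were solved by least squares from the fractions of the 10 genes listed in all 12 clusters and summed to 99.9%. They gave detection over all cells, equal within 0.2 percentage points between clusters for 2691 of 2691 genes listed at least 2 times, and relative levels (pseudocount 1). The solver was tested on simulated data. Gene symbols turned into dates (7) were restored from row names.

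The members and lists were chosen with earlier results of these data known. Named genes were all members, list genes called with a log2 fold change of at least 1 in size, the 3 genes most alike to each widely listed member, and the 2 leading genes of each cluster. Promoter patterns, 10 in number, were chosen after the data had been seen, as was the detection without cluster 4. Protein sequences were not analysed here. Alternatives were other thresholds, other genes for the shares, and leaving out clusters 4 and 10. The tools were matplotlib 3.10.9, scipy 1.17.1, pandas 2.3.3 and numpy 2.4.6 under Python 3.11.15.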

Additional observations from a re-analysis of the deposited data

How the results depend on the processing

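With a minimum log2 fold change of 1, called entries of the IGF genes numbered 15 in place of 25, and those called higher 2 in place of 8. With a minimum of 0.5, list entries called higher numbered 33 in place of 50. Without clusters 4 and 10, list entries called lower numbered 45 in place of 76, and the median span of the relative levels was 2.37 in place of 2.15, because Igf1r then kept 1 cluster. The listed cluster with the highest value was the same for 6 of 8 genes by the difference of detection, for 7 by detection in the cluster and for 7 without clusters 4 and 10. These counts include Igf2r and Igfbp5, which have 1 listed cluster each and could not move. Igfbp7 moved from cluster 7 to cluster 1 by the difference of detection. Igf1r has entries in clusters 4 and 11 alone, both called lower and both below its unlisted clusters, so its move from 4 to 11 changes no highest level, and without cluster 4 it was fixed. Against other cells without cluster 4, an alternative chosen after seeing the data, detection and mean pointed the same way in 28 of 31 entries in place of 26. Other genes for the shares moved detection over all cells by at most 0.00625 percentage points. No paired analysis was possible because cells of all samples are pooled. Without replicates, cell numbers or depth, no spread could be set beside any difference between clusters.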

Other observations

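The CCN genes are part of the list of 95 genes, and their entries are included in its counts above. Of the 6 CCN genes 5 had entries, with 12 of 44 entries called higher (27.3%) and 22 lower (50.0%). Of all entries 27.7% and 28.5% were called so. Ccn2, also known as connective tissue growth factor, was called higher in cluster 0, with detection in 86.0% against 41.7% of cells and a log2 fold change of 1.32, and in clusters 5, 9 (0.37) and 10 (0.52), the last with detection of 24.8% against 48.8%. It was called lower in clusters 2, 4, 6, 8 and 11, with its lowest log2 fold change of −2.09 in cluster 8. Those 5 clusters are also the ones where Igfbp6 and Igfbp7 were called lower. Ccn3 was called higher in cluster 1, in 70.6% against 19.8% of cells (1.41), and Ccn5 there in 97.4% against 47.7% (1.55). In cluster 11 all 5 were called lower, as were 33.8% of all its entries, with Ccn5, Ccn1 and Ccn4 at −1.98, −1.94 and −1.25.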
